A study of Caenorhabditis elegans with 9 samples.

Results

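Gene expression was compared between WT worms kept on *P. aeruginosa* PA14 and WT worms fed *E. coli* OP50, using 6 of the 9 RNA-Seq libraries of the series. The members were taken by their labels alone, as the wild type libraries (strain N2, the standard laboratory strain of *Caenorhabditis elegans*) titled PA14 or OP50, 3 in each group. All 6 came from adult worms of wild type genotype, raised on OP50 at 20°C, moved as young adults to plates of either bacterium and collected after 24 h at 25°C, so both groups shared the age, the shift in temperature and the earlier food. The 3 libraries not used here were from *egl-44(mt2247)* mutants on OP50. Total RNA was taken from worms after bacteria had been removed, with no tissue isolated, so a lower value can mean fewer cells of a tissue or less RNA per cell, and these cannot be told apart. The sources used here do not say whether the 3 libraries of a group came from separate cultures, and p-values then measure only the spread between these libraries, which may be technical.

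*P. aeruginosa* PA14 is a clinical isolate that colonizes and kills the worm, whereas *E. coli* OP50 is its usual laboratory food. Worms have no adaptive immunity, and their intestine answers bacteria with secreted effectors such as lysozymes, lectins, CUB-like proteins and pore-forming caenopores. A p38 MAP kinase cascade sets the level of many of these effectors, and surveillance pathways that sense blocked translation or damaged mitochondria induce others. The 2 bacteria are also 2 diets, and worm metabolic genes respond to the vitamins a diet holds.

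Values are FPKM, the reads of a gene scaled to the length of its transcript and to the total reads of its library. The totals behind them, estimated from the steps between FPKM values, were 14084626 to 16320443 reads in PA14 libraries and 14898657 to 17293200 reads in OP50 libraries. For a transcript of 1 kb, each read added 0.0613 to 0.0710 FPKM in PA14 libraries and 0.0578 to 0.0671 FPKM in OP50 libraries, and a value of 0 there allows up to 0.213 FPKM (3 reads, counting error only). PA14 replicate 2 stood apart from both other PA14 libraries: its log2 values correlated with theirs across genes at r = 0.924 and 0.863, compared with 0.963 between PA14 replicates 1 and 3. In it, 526 genes were over 4-fold above the mean of the other 2 PA14 libraries and 415 were over 4-fold below, against 40 and 43 in PA14 replicate 1 and 365 and 211 in PA14 replicate 3. The first principal component held 60.3% of the variance and placed PA14 replicate 2 at one end and OP50 replicate 1 at the other, with PA14 replicate 3 (10.1) and OP50 replicate 3 (9.76) side by side, so the main axis of the data followed the bacterium only in part. Among the OP50 libraries, replicate 3 had 82 genes over 4-fold above the mean of the other 2 and 455 over 4-fold below. Counts of calls at the main setting are therefore given with all 6 libraries and without PA14 replicate 2, with the filter on low values applied anew, and other settings use all 6 libraries unless stated.

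Of 15760 genes tested with a mean of at least 0.5 FPKM, 1102 (6.99%) were upregulated and 281 (1.78%) were downregulated on PA14, taking limma's unadjusted p below 0.05 together with a change of more than 2-fold. These limits are those of the study's methods, which name neither the test nor an adjustment. A fold change here is on the scale of log2(FPKM + 0.5), which understates that of low genes. Without PA14 replicate 2, 751 of 15345 genes (4.89%) were upregulated and 167 (1.09%) downregulated. Both fits called 631 genes up (4%) and 140 down (0.888%). When p-values were adjusted by the Benjamini-Hochberg method in limma, 114 genes were upregulated (0.723%) and 12 downregulated (0.0761%) with all 6 libraries, and 102 (0.665%) and 8 (0.0521%) without PA14 replicate 2. PA14 values lay wholly above OP50 values for 23.7% of all genes tested and wholly below for 6.53%. The median log2 fold change of all genes was 0.25 with all 6 libraries and 0.18 without PA14 replicate 2, and list medians below are to be read against these. Counts of calls in each list below are to be read against 6.99% up and 1.78% down with all 6 libraries. Without PA14 replicate 2 the shares to read them against are 4.89% and 1.09%. The balance of directions depended on the scaling: median-of-ratios scaling, which moved that median to 0.02, gave 665 upregulated (4.22%) and 582 downregulated genes (3.69%), and quantile normalization gave 521 (3.31%) and 667 (4.23%). Without PA14 replicate 2, upregulated genes outnumbered downregulated ones under both scalings, with 565 (3.68%) and 258 (1.68%) under median-of-ratios scaling and 491 (3.2%) and 361 (2.35%) under quantile normalization. A core of 435 upregulated (2.76%) and 138 downregulated genes (0.876%) was called in all 4 of the fits with all 6 libraries, without PA14 replicate 2 and with each scaling of all 6, and 131 and 50 of them belonged to at least 1 of 77 lists of genes by function. Those lists held 2969 of the 15760 genes tested and were chosen with earlier results of these data known.

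**Figure D1:**
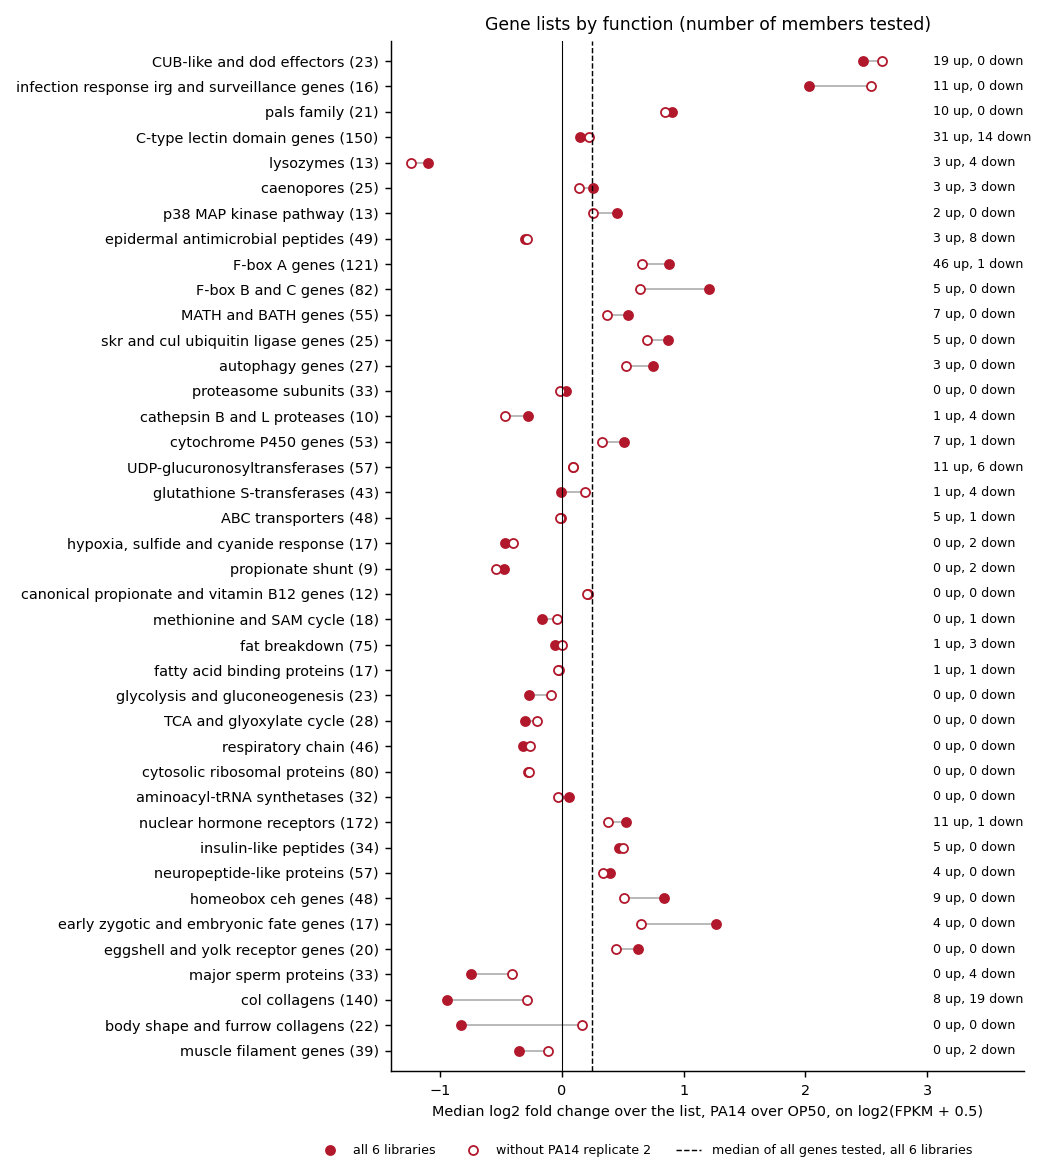
Median log2 fold change (x axis, PA14 over OP50, log2 scale) of the tested members of 40 gene lists (y axis, number tested in brackets), with all 6 libraries (filled points) and without PA14 replicate 2 (open points). The CUB-like and infection response lists lie farthest to the right, at 2.47 and 2.03 with all 6 libraries, while body shape collagens lie at -0.83 with all 6 libraries and 0.17 without PA14 replicate 2. Without that library the F-box B and C and early zygotic medians are over fewer members (22 of 82 and 12 of 17). The right margin gives the members called with all 6 libraries, and the dashed line is the median of all genes at 0.25.

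The secreted CUB-like effectors had the highest median log2 fold change of the lists examined. Of 23 tested genes of this list, which holds CUB-like and *dod* genes of the intestine, 19 were upregulated and 0 downregulated with all 6 libraries, 20 and 0 without PA14 replicate 2, and 16 and 0 with median-of-ratios scaling. Their median log2 fold change was 2.47 with all 6 libraries and 2.63 without PA14 replicate 2, and leaving out any single library left 17 to 20 of them upregulated. *irg-5*, a CUB-like gene used as a reporter of infection, had 1390.4, 329 and 1251 FPKM on PA14, against 4.76, 5.89 and 12.3 FPKM on OP50. Its lowest PA14 value came from PA14 replicate 2 and was still far above the highest OP50 value, and the log2 fold change was 6.78 ± 0.61 (SE; adjusted p = 0.0106). *dod-21* had 74.2, 42.1 and 60.7 FPKM on PA14, against 0.158, 0.122 and 0.113 FPKM on OP50, with a log2 fold change of 6.52 ± 0.28 (adjusted p = 0.00154). Each OP50 value of *dod-21* was below 0.2 FPKM and each PA14 value above 40 FPKM. The adjacent *cld-1* had 60.1, 37.6 and 50.2 FPKM on PA14, against 0, 0 and 0.225 FPKM on OP50, and a log2 fold change of 6.43 ± 0.30 (adjusted p = 0.00154). *C32H11.4* depended more on the library, with 905, 97.1 and 836 FPKM on PA14, against 8.66, 9.7 and 72.5 FPKM on OP50. It rose by 4.47 ± 1.12 on the log2 scale without passing the adjusted limit (adjusted p = 0.15), and by 5.52 without PA14 replicate 2. Members at the low end of the response included *F55G11.8*, with 105, 68.1 and 115 FPKM on PA14, against 43.9, 34.3 and 38.3 FPKM on OP50, whose groups did not overlap either.

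Genes known as markers of infection and of surveillance rose as well: 11 of 16 tested were upregulated and 0 downregulated with all 6 libraries, and 13 and 0 without PA14 replicate 2. *irg-1*, which worms induce through the bZIP factor ZIP-2 when translation is blocked, had 58, 255 and 176 FPKM on PA14, against 6.36, 8.42 and 5.31 FPKM on OP50. The groups were far apart, and the log2 fold change was 4.28 ± 0.53 (adjusted p = 0.0287). *irg-2*, another gene of this pathway, had 6.28, 16.2 and 13.3 FPKM on PA14, against 0.431, 0.572 and 0.931 FPKM on OP50, a log2 fold change of 3.36 ± 0.41 (adjusted p = 0.0274). *C25F9.11* had 56.5, 91.1 and 85.4 FPKM on PA14, against 1.01, 3.95 and 5.17 FPKM on OP50, and rose by 4.51 ± 0.51 on the log2 scale (adjusted p = 0.0231). *irg-8* had 487, 198 and 609 FPKM on PA14, against 77.6, 76.4 and 39.2 FPKM on OP50, and *irg-3* had 545, 65.3 and 94.1 FPKM on PA14, against 21.5, 28.6 and 35.2 FPKM on OP50. Both groups were apart in each, although PA14 replicate 1 was several times the other PA14 libraries in *irg-3*. The transcripts of the regulators themselves differed less. *zip-2* had 178, 241 and 218 FPKM on PA14, against 144, 145 and 145 FPKM on OP50, which is higher in each PA14 library at a log2 fold change of 0.54 ± 0.14, under the limit of 2-fold. *cebp-1*, a C/EBP gene, had 35, 41.3 and 46.9 FPKM on PA14, against 18.5, 18.3 and 21.5 FPKM on OP50, and was upregulated with all 6 libraries (log2 fold change 1.05 ± 0.18, unadjusted p = 7.27e-04), but not with median-of-ratios scaling and not without PA14 replicate 3.

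**Figure D2:**
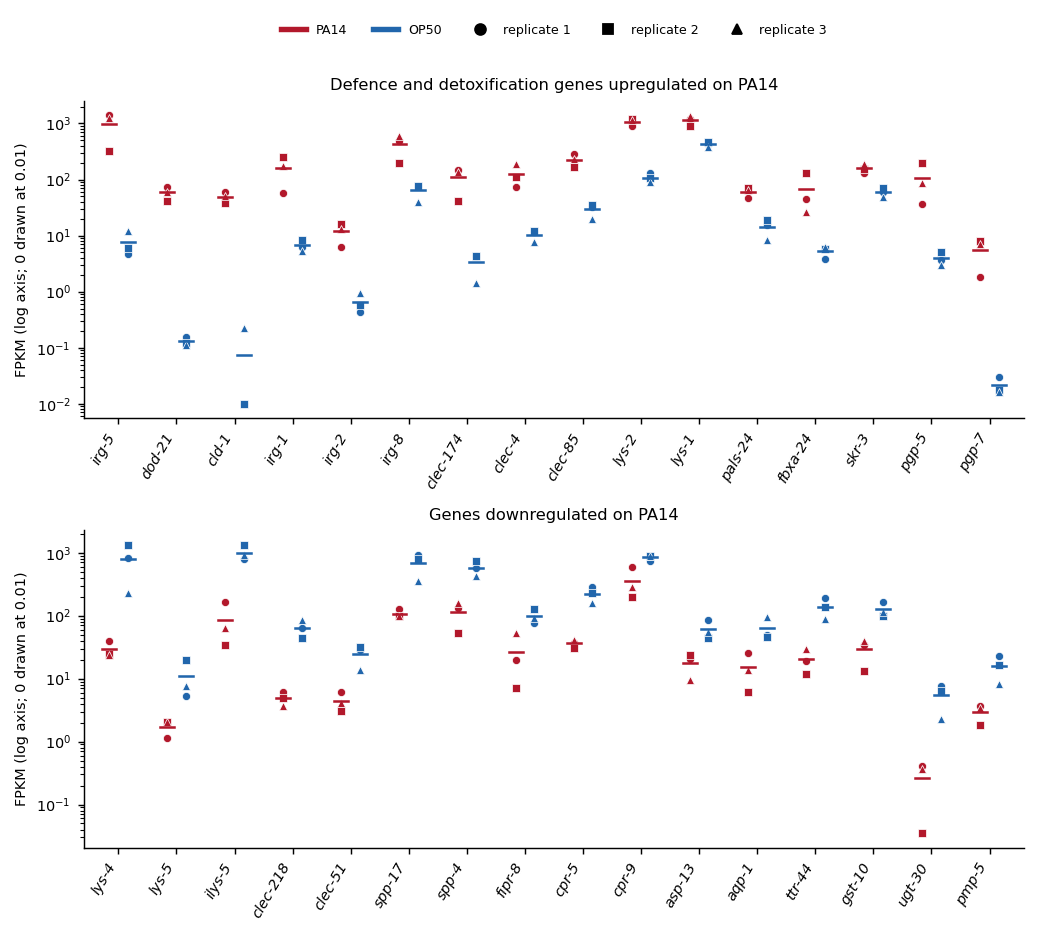
FPKM by library (y axis, log scale) of 16 genes upregulated on PA14 (top) and 16 genes downregulated on PA14 (bottom), with 1 symbol per replicate and a bar at the group mean (PA14 in red to the left, OP50 in blue to the right of each gene). In both panels the 3 PA14 points of each gene lie on one side of the 3 OP50 points, and the PA14 squares (replicate 2) lie lowest of the PA14 points for *irg-5*, *irg-8* and *clec-174*.

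C-type lectin domain genes, many of them secreted by the intestine, split in direction: 31 of 150 tested were upregulated and 14 downregulated with all 6 libraries, and 26 and 13 without PA14 replicate 2. Their median log2 fold change was 0.15 with all 6 libraries, below that of all genes, and 0.22 without PA14 replicate 2, above that of all genes. With median-of-ratios scaling the median was -0.02, and without OP50 replicate 2, 8 were downregulated. *clec-174* had 149.8, 41.2 and 138 FPKM on PA14, against 4.24, 4.31 and 1.45 FPKM on OP50, and rose by 4.75 ± 0.59 on the log2 scale (adjusted p = 0.0291). *clec-4* had 72.8, 112 and 193 FPKM on PA14, against 11.8, 12 and 7.54 FPKM on OP50 (log2 fold change 3.44 ± 0.38, adjusted p = 0.0211). *clec-45* had 139, 7.72 and 31.7 FPKM on PA14, against 0.741, 0.287 and 1.2 FPKM on OP50, a large but uneven rise of 4.81 ± 0.97 that missed the adjusted limit (adjusted p = 0.0983). In the other direction, *clec-218* had 6.11, 4.84 and 3.71 FPKM on PA14, against 64.3, 43.8 and 84.7 FPKM on OP50. That is the third largest fall among the genes past the adjusted limit, at -3.56 ± 0.30 on the log2 scale (adjusted p = 0.00945), and each PA14 value was several times below each OP50 value. *clec-51* had 6.24, 3.02 and 4.14 FPKM on PA14, against 28, 31.8 and 13.5 FPKM on OP50, and *clec-170* had 2.79, 1.24 and 3.27 FPKM on PA14, against 10.7, 10.2 and 15.4 FPKM on OP50, and both were downregulated whichever library was left out.

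Lysozymes, which cleave bacterial cell walls, also moved both ways, with 3 of 13 tested upregulated and 4 downregulated in either fit. *lys-2* had 892, 1182 and 1169 FPKM on PA14, against 130.4, 106 and 89.4 FPKM on OP50, and rose by 3.31 ± 0.19 on the log2 scale (adjusted p = 0.00366). *lys-1* had 1195, 908 and 1335 FPKM on PA14, against 429.9, 476 and 373 FPKM on OP50 (log2 fold change 1.41 ± 0.18, adjusted p = 0.0287). The spread between libraries was small in both genes relative to the difference. *lys-4* had 38.9, 24.5 and 23.9 FPKM on PA14, against 819.5, 1317 and 226 FPKM on OP50, and its log2 fold change of -4.44 ± 0.62 (adjusted p = 0.0393) was the most negative of the genes past the adjusted limit. The invertebrate-type lysozyme gene *ilys-5* had 164, 33.7 and 63.1 FPKM on PA14, against 786, 1335 and 904 FPKM on OP50 (log2 fold change -3.79 ± 0.55, adjusted p = 0.0411). *lys-5* had 1.12, 2.02 and 2.01 FPKM on PA14, against 5.23, 19.8 and 7.7 FPKM on OP50, and was downregulated in every leave-one-out fit. *lys-7*, a frequently used immune reporter, had 126, 55.5 and 56.8 FPKM on PA14, against 139.6, 315 and 88.4 FPKM on OP50, with groups that overlapped and a log2 fold change of -1.09 ± 0.52 that among the leave-one-out fits was called only without PA14 replicate 1 or OP50 replicate 3. OP50 replicate 3 was the lowest OP50 library in *lys-4*, *lys-7*, *ilys-2* and *lys-10*, and without it 8 lysozyme genes were downregulated in place of 4. Among 25 caenopores, 3 were upregulated and 3 downregulated in either fit, and 1 was upregulated without OP50 replicate 3. *spp-17* fell, with 126, 98.1 and 99.3 FPKM on PA14, against 926, 793 and 349 FPKM on OP50 (log2 fold change -2.56 ± 0.36, adjusted p = 0.0395), as did *spp-4*, with 131, 52.9 and 157 FPKM on PA14, against 575, 728 and 433 FPKM on OP50 (adjusted p = 0.0674). *spp-6* rose at a low level, with 1.7, 2.1 and 1.75 FPKM on PA14, against 0, 0.46 and 0.428 FPKM on OP50.

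Peptides of the epidermis, a defence of the skin against fungi, gave 3 upregulated and 8 downregulated of 49 tested with all 6 libraries, and 1 and 3 without PA14 replicate 2. The 3 upregulated with all 6 libraries were near the 6.99% of all genes. The downward count was 3 without PA14 replicate 1, 16 without PA14 replicate 3, 5 with OP50 replicate 3 left out and 2 with OP50 replicate 2 left out, and the upward count was 5 without OP50 replicate 2. The 3 genes called down in both fits were *fipr-8*, *fip-2* and *fipr-19*, small secreted peptides of which *fipr-19* lost its call without PA14 replicate 1, PA14 replicate 3, OP50 replicate 2 or OP50 replicate 3, and *cnc-6* was the gene called up in both, with 1.08, 2.94 and 2.22 FPKM on PA14, against 0, 0 and 0.136 FPKM on OP50. *fip-2* had 16.8, 67.9 and 21.8 FPKM on PA14, against 114, 97.4 and 112 FPKM on OP50, and its lowest OP50 value exceeded its highest PA14 value. Components of the p38 MAP kinase pathway were called only for *tir-1* and *vhp-1* among 13 tested. *tir-1*, the adaptor at the top of the cascade, had 25.7, 25.9 and 28.9 FPKM on PA14, against 10.8, 13.5 and 10.4 FPKM on OP50 (log2 fold change 1.19 ± 0.19, adjusted p = 0.0516). *vhp-1*, a phosphatase that acts on MAP kinases, had 42.4, 44.9 and 54.2 FPKM on PA14, against 19.99, 20.5 and 19.3 FPKM on OP50 (log2 fold change 1.21 ± 0.16, adjusted p = 0.0373). Each gene was upregulated whichever library was left out, but neither passed the 2-fold limit with median-of-ratios scaling or quantile normalization. The kinase gene *pmk-1* had 11.7, 21.9 and 14.7 FPKM on PA14, against 8.23, 10.3 and 8.77 FPKM on OP50, at a log2 fold change of 0.75 ± 0.27 that was below the limit.

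In the *pals* and F-box A families the called genes were nearly all upregulated. The *pals* family, whose members *pals-22* and *pals-25* regulate the response to microsporidia and viruses, had 10 of 21 tested upregulated and 0 downregulated with all 6 libraries, and 8 and 0 without PA14 replicate 2, with a median log2 fold change of 0.90 and 0.85. *pals-32* had 4.85, 8.04 and 6.25 FPKM on PA14, against 0.911, 1.23 and 0.765 FPKM on OP50 (log2 fold change 2.21 ± 0.30, adjusted p = 0.0375), and *pals-39* had 4.34, 5.01 and 7.09 FPKM on PA14, against 1.19, 0.876 and 1.07 FPKM on OP50 (adjusted p = 0.0452). *pals-24* was the most abundant of the leading members, with 47.3, 71.5 and 64.3 FPKM on PA14, against 15.7, 19.3 and 8.2 FPKM on OP50. F-box A genes, which encode adaptors that bring substrates to SCF ubiquitin ligases, had 46 of 121 tested upregulated and 1 downregulated with all 6 libraries, and 37 and 0 of 111 without PA14 replicate 2. The upward count ran from 37 to 49 over the leave-one-out fits and was 25 under quantile normalization and 33 under median-of-ratios scaling, or 23 and 26 when PA14 replicate 2 was also left out. *fbxa-24* had 45.6, 132 and 26.1 FPKM on PA14, against 3.76, 5.67 and 6.24 FPKM on OP50 (log2 fold change 3.28 ± 0.57, unadjusted p = 8.30e-04). *fbxa-128* had 9.66, 27.9 and 23.5 FPKM on PA14, against 1.75, 2.44 and 0.881 FPKM on OP50 (adjusted p = 0.046) and *fbxa-127* had 5.86, 11.4 and 6.48 FPKM on PA14, against 0.588, 0.91 and 1.06 FPKM on OP50 (adjusted p = 0.0358). In these genes every PA14 value lay above every OP50 value. Members of the F-box, *pals* and lectin families can be near-identical in sequence, and the sources used here do not give how shared reads were counted, so single members are uncertain. Genes near the floor pass the filter where some libraries are high, so the shares and medians of both families carry that choice. Without a filter, 10 of 36 *pals* genes and 48 of 162 F-box A genes were upregulated, against 1107 of 19458 over all genes. The medians were then 0.58 and 0.55, against 0.20 for all genes.

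Other parts of the ubiquitin machinery were mixed. Among 25 *skr* and *cul* genes, which encode the Skp1-like linkers and cullin scaffolds of these ligases, 5 were upregulated with all 6 libraries and 3 without PA14 replicate 2. Leaving out PA14 replicate 3 gave 13, leaving out OP50 replicate 1 gave 2 and leaving out OP50 replicate 2 gave 3. *skr-3* had 131, 157 and 187 FPKM on PA14, against 60.1, 71 and 49.5 FPKM on OP50 (log2 fold change 1.39 ± 0.20, adjusted p = 0.0395) and *skr-16* had 13.9, 32 and 9.31 FPKM on PA14, against 2.36, 4.11 and 6.17 FPKM on OP50. Of 33 proteasome subunits, 0 were called in any of these fits, and their median log2 fold change was 0.04. Autophagy genes had 3 of 27 upregulated with all 6 libraries and 2 without PA14 replicate 2, and 6 without PA14 replicate 1, 10 without PA14 replicate 3 and 5 without OP50 replicate 3. *sqst-1*, the worm p62 receptor that carries cargo into autophagosomes, had 58.9, 111 and 72.1 FPKM on PA14, against 28.3, 31.5 and 26.4 FPKM on OP50. Its groups were well apart at a log2 fold change of 1.43 ± 0.25 (unadjusted p = 8.52e-04, adjusted p = 0.071). *atg-16.2*, part of the conjugation complex of the autophagosome, had 12.2, 32.2 and 11.3 FPKM on PA14, against 4.37, 5.65 and 6.68 FPKM on OP50, with PA14 replicate 2 well above the other PA14 libraries.

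Detoxification genes were led by single members. Among 48 ABC transporters, 5 were upregulated and 1 downregulated with all 6 libraries, and 4 and 1 without PA14 replicate 2, and 5 were downregulated without PA14 replicate 3. The upward calls included 3 P-glycoproteins that export small molecules: *pgp-5* had 37.2, 195 and 85.3 FPKM on PA14, against 3.63, 5.13 and 3.03 FPKM on OP50 (log2 fold change 4.30 ± 0.57, adjusted p = 0.0373). *pgp-7*, its neighbour, had 1.82, 7.85 and 7.19 FPKM on PA14, against 0.0305, 0.0177 and 0.0165 FPKM on OP50, and a log2 fold change of 3.35 ± 0.53 (adjusted p = 0.0516). *pgp-6* had 5.09, 9.06 and 17.9 FPKM on PA14, against 3.17, 3.7 and 0.988 FPKM on OP50. *pmp-5*, a transporter of the peroxisomal type, fell, with 3.65, 1.83 and 3.4 FPKM on PA14, against 23, 16.7 and 8.36 FPKM on OP50. UDP-glucuronosyltransferases, which conjugate toxins with sugar, had 11 of 57 upregulated and 6 downregulated with all 6 libraries, and 13 and 2 without PA14 replicate 2. The downward count was 10 without PA14 replicate 3 and 3 without OP50 replicate 1 or OP50 replicate 2. *ugt-44* had 115, 41.1 and 91 FPKM on PA14, against 11.8, 15 and 13.3 FPKM on OP50 (adjusted p = 0.0485), while *ugt-30* had 0.405, 0.035 and 0.364 FPKM on PA14, against 7.72, 6.4 and 2.28 FPKM on OP50. Each PA14 value of *ugt-30* was below 0.5 FPKM and each OP50 value above 2 FPKM.

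Cytochrome P450 genes had 7 of 53 upregulated and 1 downregulated with all 6 libraries, but 3 and 1 without PA14 replicate 2. The 3 upregulated there were of 49 tested, near the 4.89% of all genes. The upward count was 11 with PA14 replicate 3 left out, 2 with OP50 replicate 1 left out and 3 with OP50 replicate 2 left out. *cyp-13A5* had 6.94, 20.3 and 3.59 FPKM on PA14, against 0.416, 0.322 and 1.57 FPKM on OP50, and was upregulated in every leave-one-out fit. Glutathione S-transferases, which conjugate glutathione to toxic compounds, had 1 of 43 upregulated and 4 downregulated with all 6 libraries, and 3 and 2 without PA14 replicate 2. *gst-10* had 34.6, 13.1 and 39.9 FPKM on PA14, against 168, 99 and 114 FPKM on OP50 (log2 fold change -2.21 ± 0.44), and *gst-24* rose, with 15.9, 14.3 and 14.1 FPKM on PA14, against 5.82, 5.35 and 7.33 FPKM on OP50. The upward count was 2 without PA14 replicate 1, PA14 replicate 3 or OP50 replicate 2 and 4 without OP50 replicate 3, and the downward count was 2 without OP50 replicate 1 or OP50 replicate 2. *gst-24* was not called with median-of-ratios scaling or quantile normalization. The metallothionein gene *mtl-1* had 63, 989 and 81.2 FPKM on PA14, against 28.4, 26.5 and 9.32 FPKM on OP50. PA14 replicate 2 held by far the highest value, and the log2 fold change of 3.13 ± 1.06 became 1.87 without it, with the call lost without OP50 replicate 3. Among 13 genes of the mitochondrial stress response, 0 were called in either fit, and *hsp-60*, a mitochondrial chaperone, had 223, 137 and 228 FPKM on PA14, against 348, 328 and 329 FPKM on OP50, lower in each PA14 library. The heat shock gene *hsp-17* was upregulated in both fits but lost its call when any other single library was left out, with 126, 42.7 and 146 FPKM on PA14, against 42.7, 42.3 and 46.2 FPKM on OP50.

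Propionate metabolism held one of the widest single-gene differences. Worms break down propionate by a route that needs vitamin B12 or, when the vitamin is scarce, by a shunt that starts with the acyl-CoA dehydrogenase ACDH-1, and *acdh-1* is known as a gene that dietary B12 represses. *acdh-1* had 0.0601, 0.0519 and 0.162 FPKM on PA14, against 76.2, 27 and 3.01 FPKM on OP50. Each PA14 value was below 0.2 FPKM, whereas the OP50 values differed widely among themselves, with OP50 replicate 3 lowest. The log2 fold change was -5.05 ± 1.04 (unadjusted p = 0.00211, adjusted p = 0.101), called whichever library was left out, although past the adjusted limit in neither fit and not called by limma voom on recovered reads. Of 9 genes of the shunt and its regulators, 2 were downregulated and 0 upregulated with all 6 libraries, and 3 and 0 without PA14 replicate 2 or with median-of-ratios scaling, and 1 and 0 without OP50 replicate 1. *hphd-1*, an enzyme gene of the shunt, had 17.6, 21.6 and 24 FPKM on PA14, against 67.2, 54.7 and 31.4 FPKM on OP50, and was called in all leave-one-out fits but the fit without OP50 replicate 1. *nhr-68*, a nuclear receptor that activates the shunt, had 10.6, 16.7 and 11.9 FPKM on PA14, against 25.4, 26.4 and 19.4 FPKM on OP50, *ech-6* had 99, 87 and 100.1 FPKM on PA14, against 214, 165 and 117 FPKM on OP50, and *hach-1* had 44.1, 48.1 and 40.8 FPKM on PA14, against 67.9, 61.3 and 56.6 FPKM on OP50. PA14 values lay below OP50 values in each, at differences under 2-fold with all 6 libraries, and *nhr-68* was called without PA14 replicate 2. *alh-8*, the last enzyme of the shunt, had 393, 453 and 369.6 FPKM on PA14, against 447, 431 and 418 FPKM on OP50, with overlapping groups. Among 12 genes of the B12-dependent route, 0 were called in either fit and 1 was upregulated without PA14 replicate 1. The carboxylase subunit genes *pcca-1* and *pccb-1* had PA14 values below all OP50 values at log2 fold changes of -0.40 ± 0.13 and -0.41 ± 0.12, whereas the mutase gene *mmcm-1* had 83.4, 92.4 and 75 FPKM on PA14, against 79.1, 76 and 97.1 FPKM on OP50.

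**Figure D3:**
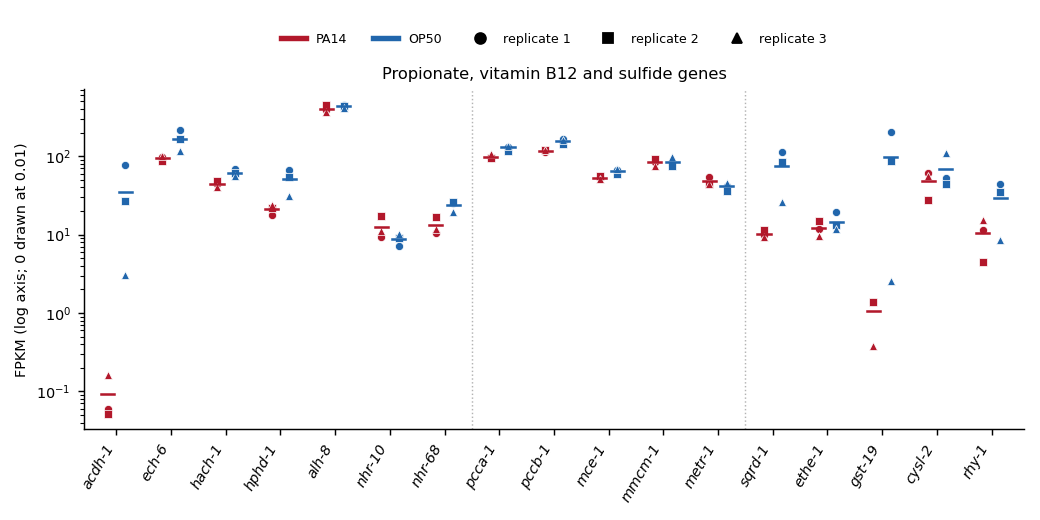
FPKM by library (y axis, log scale) of genes of the propionate shunt (left of the first dotted line), of the B12-dependent propionate and methionine routes (middle) and of sulfide and hypoxia responses (right), drawn with 1 symbol per replicate and a bar at the group mean, PA14 in red to the left of OP50 in blue. *acdh-1* and *gst-19* show the widest gaps between groups, and in both genes OP50 replicate 3 (triangles) is the lowest OP50 library.

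A similar library pattern held for *sqrd-1* and *gst-19* of the sulfide and hypoxia responses, but not for *cysl-2*. *sqrd-1*, the sulfide:quinone oxidoreductase that detoxifies hydrogen sulfide, had 9.84, 11.6 and 9.36 FPKM on PA14, against 114, 84.7 and 26.2 FPKM on OP50, and fell at a log2 fold change of -2.57 ± 0.52 (unadjusted p = 0.00194). *gst-19* had 1.39, 1.38 and 0.383 FPKM on PA14, against 204, 86.8 and 2.53 FPKM on OP50, with OP50 replicate 3 close to the PA14 values, and was called in all leave-one-out fits but that without OP50 replicate 2. They were the 2 genes called down of 17 in the hypoxia, sulfide and cyanide list, with 0 called up in either fit, 4 called down without PA14 replicate 3 and 1 without OP50 replicate 2. *hif-1*, the hypoxia-inducible factor, had 71.8, 84.5 and 71.2 FPKM on PA14, against 69.3, 69.7 and 81 FPKM on OP50, and was not called. *P. aeruginosa* is known to make cyanide, and the cysteine synthase genes *cysl-1* to *cysl-4*, of which *cysl-2* takes part in cyanide breakdown, were not called. *cysl-2* had 61, 27.5 and 56.5 FPKM on PA14, against 52.7, 43.6 and 109.5 FPKM on OP50.

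Lipid genes gave few calls. *fat-5*, a desaturase that makes palmitoleic acid, rose, with 8.82, 4.49 and 2.78 FPKM on PA14, against 0.817, 0.546 and 0.374 FPKM on OP50 (log2 fold change 2.33 ± 0.44), as the 1 gene called in either fit among 26 fatty acid synthesis genes. Without PA14 replicate 3, 2 of these were upregulated and 4 downregulated, without OP50 replicate 3, 3 were upregulated, and without PA14 replicate 1, 1 was downregulated. Of 75 fat breakdown genes, 1 was upregulated and 3 downregulated with all 6 libraries, 2 and 3 without PA14 replicate 2, 2 and 8 without PA14 replicate 3, 3 and 4 without OP50 replicate 2 and 1 and 5 without OP50 replicate 3. Besides *acdh-1*, the downregulated genes were *acdh-2*, with 0.728, 0.145 and 0.151 FPKM on PA14, against 2.42, 2.17 and 2.71 FPKM on OP50, and *acox-1.4*, an acyl-CoA oxidase gene of peroxisomes, with 8.17, 1.69 and 6.32 FPKM on PA14, against 23.1, 12.8 and 11.2 FPKM on OP50, and a call lost without OP50 replicate 1. Among 17 fatty acid binding protein genes, *lbp-1* rose, with 262, 272 and 174 FPKM on PA14, against 50.4, 74.5 and 125 FPKM on OP50, and *lbp-5* fell with all 6 libraries, with 94.7, 37.9 and 66.5 FPKM on PA14, against 154, 177 and 147 FPKM on OP50, a call lost without PA14 replicate 2. Over the leave-one-out fits, 1 or 2 of these genes were upregulated and 0 to 2 downregulated, with 2 upregulated without PA14 replicate 2, OP50 replicate 2 or OP50 replicate 3 and 2 downregulated without PA14 replicate 1 or OP50 replicate 3. *far-2*, among the most abundant transcripts of the worm, had 3574, 3174 and 3343 FPKM on PA14, against 2941, 3476 and 3317 FPKM on OP50. The 6 vitellogenin genes, which encode yolk proteins, were not called in either fit, while 1 was upregulated without PA14 replicate 3 and 1 downregulated without PA14 replicate 1 or OP50 replicate 1. *vit-2* had 1659, 2170.0 and 537 FPKM on PA14, against 509, 830.3 and 1448 FPKM on OP50, with overlapping groups.

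Lysosomal cysteine proteases of the cathepsin B and L families moved both ways, with 1 of 10 upregulated and 4 downregulated in both fits. *cpr-5* had 37, 31 and 41.4 FPKM on PA14, against 283, 233 and 159 FPKM on OP50 (log2 fold change -2.58 ± 0.24, adjusted p = 0.0115). Its PA14 values lay close together and well below all OP50 values. *cpr-9* had 584, 197 and 283 FPKM on PA14, against 751, 891 and 881 FPKM on OP50, and *cpr-8* had 2.36, 2.38 and 2.59 FPKM on PA14, against 8.44, 5.33 and 8.88 FPKM on OP50, and both were called whichever library was left out. *cpr-1* had 254, 618 and 143 FPKM on PA14, against 591, 843 and 582 FPKM on OP50, with overlapping groups and a call that among the leave-one-out fits was kept only without PA14 replicate 2. *cpr-3* rose, with 95.7, 44.3 and 81.7 FPKM on PA14, against 19.7, 25.9 and 15.9 FPKM on OP50 (log2 fold change 1.78 ± 0.33). Of 12 aspartyl proteases, *asp-13* alone was called in either fit, with 20.1, 23.8 and 9.38 FPKM on PA14, against 85.9, 44.8 and 54.3 FPKM on OP50. Intestinal transport genes included *aqp-1*, a channel for water and glycerol, which fell, with 25.6, 6.15 and 13.7 FPKM on PA14, against 49, 46.6 and 95.5 FPKM on OP50, and *swt-6*, a sugar transporter gene of the SWEET family, which rose, with 15, 10.03 and 24.4 FPKM on PA14, against 1.39, 1.21 and 1.13 FPKM on OP50 (log2 fold change 3.20 ± 0.36, adjusted p = 0.0217). Transthyretin-related genes, which encode secreted proteins of mostly unknown role, gave both *ttr-23* upregulated, with 22.1, 42 and 23.2 FPKM on PA14, against 2.51, 2.08 and 3.48 FPKM on OP50 (adjusted p = 0.0158), and *ttr-44* downregulated, with 18.8, 12 and 30.1 FPKM on PA14, against 189, 139 and 89.3 FPKM on OP50 (adjusted p = 0.0395).

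Core housekeeping lists gave no calls at the limits used. With all 6 libraries, 0 of 80 cytosolic ribosomal protein genes, 0 of 46 respiratory chain genes, 0 of 23 glycolysis genes, 0 of 28 genes of the TCA and glyoxylate cycles, 0 of 32 aminoacyl-tRNA synthetase genes and 0 of 31 splicing factor genes were called. In the leave-one-out fits 1 TCA cycle gene was downregulated without OP50 replicate 2 and 1 respiratory chain gene without PA14 replicate 3. Their medians were not alike: -0.28 for ribosomal protein genes, -0.32 for the respiratory chain, -0.27 for glycolysis and -0.30 for the TCA cycle, each below the median of 0.25 for all genes, against 0.06 for tRNA synthetases and 0.14 for splicing factors. Without PA14 replicate 2, the first 4 medians were -0.27, -0.26, -0.09 and -0.21. They were -0.53, -0.57, -0.52 and -0.54 with median-of-ratios scaling, against 0.02 for all genes, and 0.01, -0.23, -0.17 and -0.32 with quantile normalization, against 0.03 for all genes, so that of ribosomal protein genes depended on the scaling. On deposited FPKM, PA14 values lay wholly below OP50 values for 70 of the 80 ribosomal protein genes and 35 of the 46 respiratory chain genes, against 6.53% of all genes. FPKM summed over all genes was 833369 to 875072 in PA14 libraries and 891983 to 926726 in OP50 libraries. Overlap of the groups was not computed under the other scalings. Of 12 genes of the mitochondrial genome tested, 7 had PA14 values wholly below OP50 values and 2 wholly above, against 6.53% and 23.7% of all genes, and 1 was downregulated in both fits and 4 with median-of-ratios scaling. *ND1*, a subunit of complex I, had 267, 313 and 272 FPKM on PA14, against 538, 483 and 497 FPKM on OP50 (log2 fold change -0.83 ± 0.12, adjusted p = 0.0393), below the 2-fold limit on the deposited scale and past it with median-of-ratios scaling. *COX3*, a subunit of complex IV, had 2685, 3013 and 2931 FPKM on PA14, against 3205, 3022 and 1647 FPKM on OP50, with overlapping groups. The 10 most abundant genes of each group shared 8 names, among them *rps-25*, *rpl-38* and *eef-1A.1*, and 0 of the 12 genes in either set were called.

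Lists of signalling genes are to be read against the 6.99% of all genes upregulated with all 6 libraries. FMRFamide-like peptide genes (31 tested) and TGF-beta and Wnt pathway genes (24 tested) had 0 called in either fit. On deposited FPKM, PA14 values lay wholly above OP50 values for 24 of the 31 FMRFamide-like genes, against 23.7% of all genes. For TGF-beta and Wnt genes this held for 6 of 24, near that share. Their median log2 fold changes were 0.45 and 0.60, against 0.25 for all genes. Among 34 insulin-like peptide genes, 5 were upregulated and 0 downregulated with all 6 libraries, 4 and 0 without PA14 replicate 2, and 8 were upregulated without PA14 replicate 3. *ins-11*, an intestinal insulin-like peptide gene, had 15.4, 18 and 32.6 FPKM on PA14, against 7.54, 7.54 and 3.84 FPKM on OP50, and rose by 1.71 ± 0.38 on the log2 scale. *ins-20* had 3.31, 2.43 and 7.28 FPKM on PA14, against 0.135, 0.782 and 1.16 FPKM on OP50, and *ins-19* had 23, 27.9 and 5.21 FPKM on PA14, against 0, 0.549 and 3.23 FPKM on OP50. All PA14 values were above all OP50 values in these genes, and their calls were kept in every leave-one-out fit. Of 57 neuropeptide-like protein genes, 4 were upregulated with all 6 libraries, near the share over all genes, 3 without PA14 replicate 2 and 7 without PA14 replicate 1. *nlp-5* had 5.56, 7.07 and 6.04 FPKM on PA14, against 1.55, 2.35 and 2.7 FPKM on OP50, and *nlp-76* had 6.2, 4.91 and 3.87 FPKM on PA14, against 1.4, 1.47 and 1.82 FPKM on OP50. *mod-5*, the serotonin transporter, had 3.06, 8.3 and 2.53 FPKM on PA14, against 0.889, 1.23 and 1.05 FPKM on OP50. Chemoreceptor genes, for the 47 that passed the filter on low values, gave 10 upregulated and 1 downregulated with all 6 libraries, but 4 and 1 of 42 without PA14 replicate 2 and 6 upregulated without OP50 replicate 1. Only 47 of 1267 in the files passed, and genes near the floor pass where some libraries are high, so these counts carry that choice. Without a filter, 11 of 883 chemoreceptor genes were upregulated, against 1107 of 19458 over all genes. *srg-31* had 4.31, 8.17 and 7.36 FPKM on PA14, against 0.42, 0.709 and 0.659 FPKM on OP50 (log2 fold change 2.66 ± 0.33, adjusted p = 0.0284), and *srw-86* had 17.5, 69 and 24.6 FPKM on PA14, against 0.219, 3.81 and 2.96 FPKM on OP50. Nuclear hormone receptors gave 11 of 172 upregulated, also near that share, and 1 downregulated with all 6 libraries, but 4 and 1 without PA14 replicate 2, 2 and 2 with median-of-ratios scaling, 23 upregulated without PA14 replicate 1 and 7 without OP50 replicate 1, and 0 downregulated without OP50 replicate 1 or OP50 replicate 2. *nhr-112* had 4.59, 13 and 11.1 FPKM on PA14, against 1.92, 2.47 and 1.29 FPKM on OP50, and was called in each leave-one-out fit.

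Counts for development, germ line and cuticle moved with single libraries. Early zygotic and embryonic fate genes had 4 of 17 upregulated with all 6 libraries, 3 of 12 without PA14 replicate 2, 12 of 18 without PA14 replicate 3 and 2 of 19 without OP50 replicate 1. *pha-4*, the FoxA factor of the pharynx and foregut, kept its call in every leave-one-out fit, with 8.76, 23.7 and 11.1 FPKM on PA14, against 4.07, 5.24 and 4.12 FPKM on OP50. In the F-box B and C list, 5 of 82 were upregulated with all 6 libraries, near the 6.99% of all genes. The list had 3 of 22 upregulated without PA14 replicate 2 and 40 of 96 without PA14 replicate 3. Most of its members thus passed the filter on low values only through PA14 replicate 2, so these counts are over different genes and a median over them carries that choice. Leaving out OP50 replicate 1 gave 3 of 96 and leaving out OP50 replicate 3 gave 8 of 96. *fbxc-58* was the leading gene called in each of these, with 7.48, 20.02 and 17.8 FPKM on PA14, against 1.66, 2.06 and 0.791 FPKM on OP50. Homeobox *ceh* genes had 9 of 48 upregulated with all 6 libraries and 3 without PA14 replicate 2, OP50 replicate 1 or OP50 replicate 2, against 18 without PA14 replicate 3. Eggshell and yolk receptor genes had 0 of 20 called in either fit but 7 without OP50 replicate 3 and 3 without PA14 replicate 3. *chs-1*, the chitin synthase of the eggshell, had 99.9, 120.1 and 66.8 FPKM on PA14, against 32.2, 41.8 and 80.05 FPKM on OP50.

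**Figure D4:**
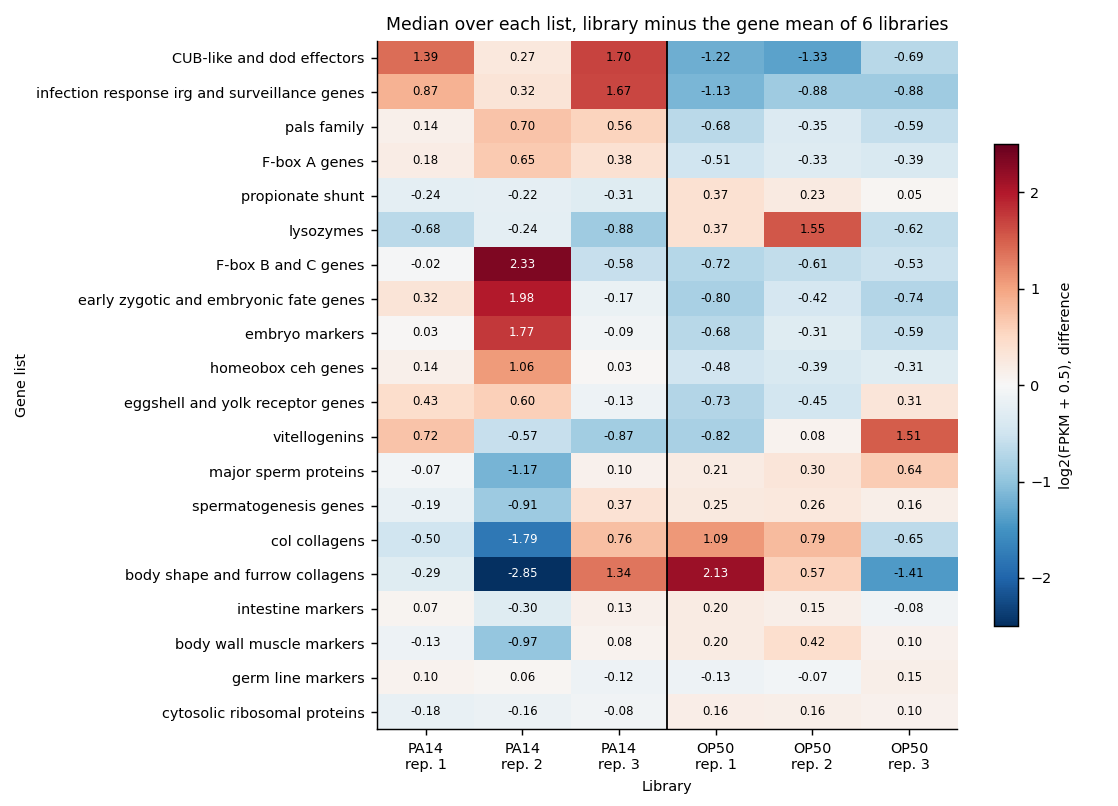
Median over each of 20 gene lists (rows) of the difference between a library (columns, 3 PA14 libraries left of 3 OP50 libraries) and the gene's mean over the 6 libraries, on the scale of log2(FPKM + 0.5), written in each cell and shown by colour. The CUB-like and infection response lists are positive in all 3 PA14 libraries and negative in all 3 OP50 libraries, whereas body shape collagens range from -2.85 in PA14 replicate 2 to 2.13 in OP50 replicate 1. The F-box B and C list reads 2.33 in PA14 replicate 2, the library through which most of its members passed the filter.

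Collagens of the cuticle varied widely within groups. Of 140 *col* genes, 8 were upregulated and 19 downregulated with all 6 libraries, and 8 and 7 without PA14 replicate 2. Leaving out PA14 replicate 1 gave 7 downregulated, PA14 replicate 3 gave 46, OP50 replicate 1 gave 8, OP50 replicate 2 gave 5 and OP50 replicate 3 gave 39, while the upward count was 1 with OP50 replicate 1 left out and 5 with OP50 replicate 2 left out. *col-149* had 33.3, 5.03 and 56.7 FPKM on PA14, against 210.1, 173 and 183 FPKM on OP50, and *col-159* had 508, 146 and 981 FPKM on PA14, against 2237, 2117 and 1655 FPKM on OP50. Both fell in every leave-one-out fit, with PA14 replicate 2 lowest. *col-95* rose, with 249, 366 and 134 FPKM on PA14, against 12.6, 54.8 and 26.7 FPKM on OP50. Of 22 body shape and furrow collagens, 0 were called in either fit, and their median in PA14 replicate 2 relative to the other PA14 libraries was -3.44 on the log2 scale. Leaving out OP50 replicate 1 gave 4 upregulated, leaving out PA14 replicate 1 gave 1, leaving out PA14 replicate 3 gave 2 upregulated and 1 downregulated, and leaving out OP50 replicate 3 gave 1 downregulated. Of the 5 genes farthest above the other PA14 libraries in PA14 replicate 2, 2 were collagens, opposite in direction to the collagen lists, and *clec-196* and *clec-266* were lectin genes. *dpy-17*, a collagen gene, had 10.4, 311 and 1.42 FPKM on PA14, against 1.7, 0.896 and 1.33 FPKM on OP50, and *dpy-14*, a collagen of the embryo, had 7.78, 306 and 0.429 FPKM on PA14, against 0.0555, 0.258 and 0.24 FPKM on OP50. *hch-1*, the enzyme that lets embryos hatch, had 0.55, 31.8 and 0 FPKM on PA14, against 0, 0 and 0 FPKM on OP50. The 5 farthest below were *pud-3*, *nspe-1*, *nspe-2*, *F46F2.3* and *gst-38*. *pud-3* had 319.9, 2.67 and 96.1 FPKM on PA14, against 44.1, 60.7 and 426 FPKM on OP50. Major sperm protein genes had 4 of 33 downregulated with all 6 libraries and 1, *msp-63*, without PA14 replicate 2, against 8 without PA14 replicate 1, 15 without PA14 replicate 3, 2 without OP50 replicate 3 and 14 with median-of-ratios scaling. These genes are near-copies of each other, so single members are uncertain. The part of embryo content, stage or moulting state of the worms in the results above was not tested.

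Marker lists for tissues were checked for the whole worm. Defining markers of intestine (*elt-2*, *act-5*), body wall muscle (*unc-54*, *myo-3*), pharynx (*myo-2*), neurons (*unc-119*, *snb-1*) and germ line (*glh-1*, *pgl-1*) were above 0 in all 6 libraries. Among 12 intestine markers, 0 were called in either fit, 1 was upregulated without PA14 replicate 1 or PA14 replicate 3, and the summed level ran from 3296 to 5559 FPKM in PA14 libraries and from 4372 to 5957 FPKM in OP50 libraries. That sum includes *asp-1*, among the 10 most abundant genes on OP50, so it weighs mainly the most abundant members. *elt-2*, the master regulator of the intestine, had 12, 15.5 and 17.4 FPKM on PA14, against 14.1, 13.6 and 7.76 FPKM on OP50, while the brush border actin *act-5* had 711, 123 and 624 FPKM on PA14, against 925, 923 and 725 FPKM on OP50, with PA14 replicate 2 lowest. Among 11 body wall muscle markers, 2 were downregulated with all 6 libraries and 1 without PA14 replicate 2, OP50 replicate 1 or OP50 replicate 2, namely *tni-1*, a troponin I gene, with 33.7, 30.7 and 47.7 FPKM on PA14, against 150.4, 121 and 57.9 FPKM on OP50. Of 9 embryo markers, 1 was upregulated with all 6 libraries and 0 without PA14 replicate 2, where 5 were tested, or OP50 replicate 1, 2 without PA14 replicate 1 and 5 without PA14 replicate 3, and their summed level was 54, 129 and 52.5 FPKM in the PA14 libraries and 36.4, 39.8 and 44 FPKM in the OP50 libraries, in order of replicate. Of 13 germ line markers, 0 were called in either fit, and of 14 oocyte markers 0 in either fit but 7 without OP50 replicate 3 and 5 without PA14 replicate 3. Of 14 pharynx markers, 3 were upregulated in both fits and under both scalings, and 1 was downregulated with median-of-ratios scaling. Uterus and vulva markers had 2 of 7 upregulated with all 6 libraries and 1 without PA14 replicate 2. Neuron markers had 1 of 12 and 0. Under both scalings these 2 lists had 0 upregulated.

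Some upregulated genes lay side by side. Of the 435 genes upregulated in all 4 fits, 66 fell into 11 runs of at least 4 such genes whose starts were within 25 kb of the next, a rule chosen after the values were seen. Positions are those of the WBcel235 build, which the submitters' processing notes name. The longest run, on chromosome IV from 12866109 to 12989455, held 15 such genes among 32 tested there and 0 called down, from *clec-186* over *irg-6*, *C32H11.4*, *cld-1*, *dod-21*, *dod-24* and *dod-22* to *K10D11.6*. Their log2 fold changes ran from 1.27 to 6.52. A run on chromosome V from 13716824 to 13773700 held 7 of 15 tested, with *dct-17*, *F35E12.6*, *irg-5* and *cld-9*. Between 4025047 and 4044951 on chromosome V all 6 tested genes were such, among them *irg-2*, *phat-3* and 3 *C49G7* genes. *clec-62*, *clec-63*, *clec-65* and *clec-66* were 4 of 5 tested between 12893062 and 12906644 on chromosome II, and *kreg-1* with 3 *F53A9* genes were 4 of 4 between 8709764 and 8716922 on chromosome X. Downregulated genes formed 4 runs of at least 3 genes, including *lys-4*, *lys-5* and *lys-6*, 3 of 3 tested between 11621429 and 11627947 on chromosome IV. Chromosome V held 5.07% of its tested genes among those upregulated in all 4 fits, against 1.89% on X and 1.23% on I, whereas over all genes upregulated with all 6 libraries chromosomes V and X were close, at 9.97% and 9.41%, against 3.86% on I. Neighbours in such runs can be recent copies that share reads, and the strand setting of the counting was not stated, so overlapping genes are uncertain.

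**Figure D5:**
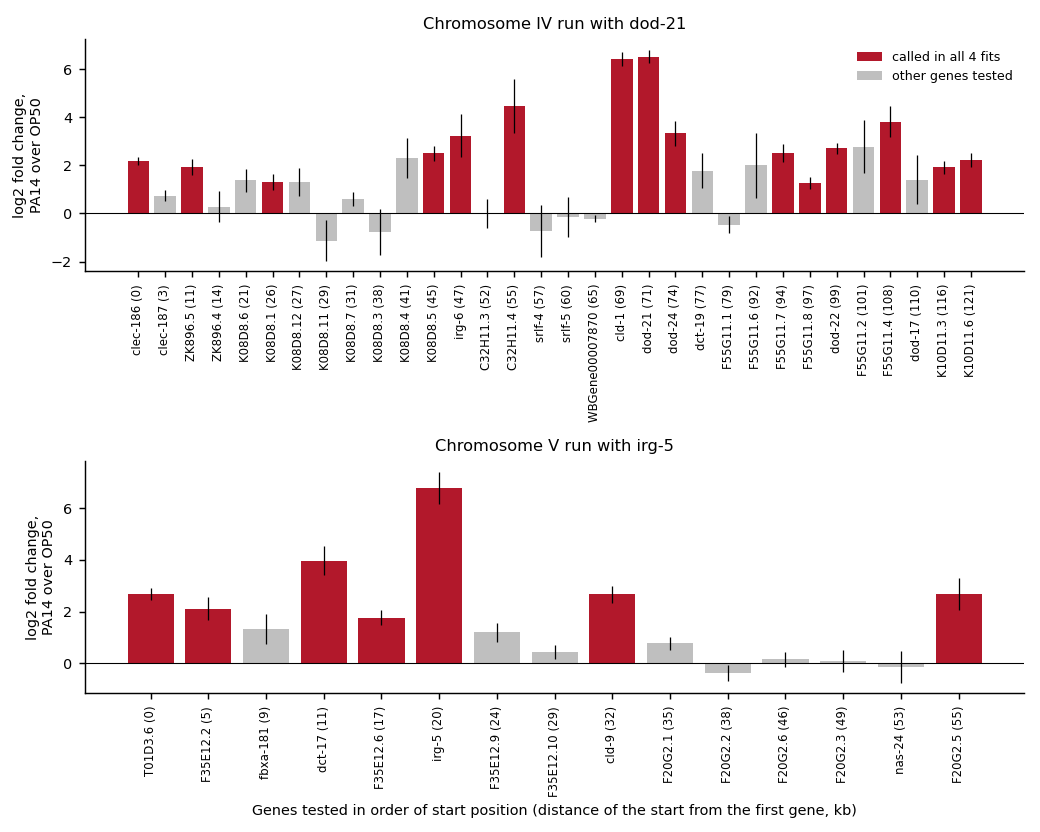
Log2 fold change, PA14 over OP50, with its SE (y axis) of each tested gene in the chromosome IV run with *dod-21* (top, 32 genes) and the chromosome V run with *irg-5* (bottom, 15 genes), in order of position with the distance from the first gene in kb. Red bars are the genes upregulated in all 4 fits, 15 and 7 of those shown, and grey bars are the other genes, which lie between them.

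Several genes with the largest rises past the adjusted limit belonged to no list. *C50F7.5* had 85.2, 198 and 132 FPKM on PA14, against 1.59, 3.3 and 4.36 FPKM on OP50 (log2 fold change 5.28 ± 0.42, adjusted p = 0.00923), and *F08G2.5* had 53.3, 81.9 and 62.6 FPKM on PA14, against 1.11, 1.46 and 3.45 FPKM on OP50 (adjusted p = 0.00923). *B0024.4* had 221, 176 and 199.8 FPKM on PA14, against 5.4, 14 and 7.77 FPKM on OP50 (log2 fold change 4.48 ± 0.33, adjusted p = 0.00862), with a spread within PA14 far smaller than the difference. *clc-19*, a claudin-like gene, had 123, 45 and 179.8 FPKM on PA14, against 4.28, 4.85 and 5.39 FPKM on OP50 (adjusted p = 0.0235). *F25A2.1* had 23.6, 26.4 and 26.5 FPKM on PA14, against 0.697, 1.32 and 0.82 FPKM on OP50 (log2 fold change 4.19 ± 0.26, adjusted p = 0.00391). The remaining genes of the 15 largest rises were *Y51B9A.8*, *F09C6.13* and *F33H12.7*, each under 1 FPKM in every OP50 library and above 5 FPKM in every PA14 library. Beyond those named above, the falls past the adjusted limit were *msrp-4*, with 1.58, 1.56 and 4.25 FPKM on PA14, against 15.4, 17 and 18.6 FPKM on OP50, *ZK742.3*, with 1.68, 1.45 and 1.37 FPKM on PA14, against 7.67, 8.38 and 7.12 FPKM on OP50, *F58B4.5*, with 14.7, 9.67 and 8.2 FPKM on PA14, against 34.3, 38.2 and 53 FPKM on OP50, *Y47G6A.33*, with 71.9, 49.6 and 72.6 FPKM on PA14, against 163, 184 and 254 FPKM on OP50, *rbm-3.1*, with 576, 490.1 and 479.6 FPKM on PA14, against 1026, 1201 and 1233 FPKM on OP50, not called with quantile normalization, and 1 gene of the mitochondrial genome. In each, the 3 PA14 values were below the 3 OP50 values. Without PA14 replicate 2, *clec-218*, *cpr-5* and *ZK742.3* stayed past the adjusted limit (adjusted p = 0.0243, 0.0298 and 0.0369). *lys-4*, *ilys-5*, *ttr-44*, *msrp-4*, *spp-17*, *F58B4.5*, *Y47G6A.33* and the mitochondrial gene did not (adjusted p from 0.0524 to 0.0952). The 8 falls past the limit in that fit were thus partly other genes.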

How the data were processed

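RNA-Seq was analysed for 3 WT libraries on PA14 and 3 on OP50, grouped by their titles. The authors deposited FPKM per gene for each library. The submitters' processing notes name Bowtie2 2.2.3, TopHat2 2.0.12, HTSeq 0.6.1, DESeq 1.18.0 and the build WBcel235, while the sources used here do not give the role of each tool, the strand setting or how reads shared between genes were handled. FPKM fixes each library's total, so a change in a few abundant genes moves all others.

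Values were taken as log2(FPKM + 0.5), genes with a mean under 0.5 FPKM were left out, and groups were compared with limma 3.58.1 in R 4.3.3 (empirical Bayes with a trend, 2-sided, no covariate), where called means p below 0.05 and more than 2-fold. The procedure was tested on simulated data. FPKM steps gave whole reads for 100% of 19711 genes (relative tolerance 1e-12), and limma voom on those reads was an alternative. The others were median-of-ratios scaling, quantile normalization, pseudocounts of 0.1 and 1 FPKM, no filter, a filter at 5 FPKM, limma without trend or with robust variances, a fit of all 9 libraries, the replicate number as a block, and each library left out. Both voom with median-of-ratios totals and voom without PA14 replicate 2 were added after seeing the data. Library totals and the FPKM of a single read set the precision given with the results.

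The members, the lists of genes by function and the tests were chosen with earlier results of these data known. Genes named were, by rule, the 15 largest changes in each direction past the adjusted limit that did not overlap and were called with both scalings, up to 3 per direction and list called with and without PA14 replicate 2, any member of lists of up to 20 genes, the 5 highest and lowest of PA14 replicate 2, and the 10 most abundant. Other genes named, among them further members of longer lists, tissue markers and genes of the mitochondrial genome, were chosen after their values were seen. Gene names and positions came from reference tables of WBcel235, matched by gene identifier.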

Additional observations from a re-analysis of the deposited data

How the results depend on the processing

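Alternatives moved the counts of called genes, and scaling moved the balance of directions. At the unadjusted limit, upregulated and downregulated genes numbered 665 and 582 under median-of-ratios scaling, 521 and 667 under quantile normalization, 603 and 183 with the filter at 5 FPKM, and 704 and 698 with limma voom on recovered reads and median-of-ratios totals, against 1102 and 281 as reported. Past the adjusted limit of limma, they numbered 61 and 10 after median-of-ratios scaling, 57 and 7 after quantile normalization, 74 and 5 without a filter, 76 and 4 without trend, 260 and 33 in the fit of all 9 libraries, 49 and 5 with voom and 19 and 5 with voom and median-of-ratios totals, against 114 and 12. Leaving out 1 library gave 749 to 1602 upregulated and 144 to 993 downregulated genes, and 7 to 102 and 0 to 18 past the adjusted limit. Leaving out PA14 replicate 2 gave 565 and 258 under median-of-ratios scaling, 491 and 361 under quantile normalization and 926 and 155 with voom, and past the adjusted limit 70 and 13, 92 and 12, and 110 and 5. The highest unadjusted counts in both directions came without PA14 replicate 3, and the 0 downregulated past the adjusted limit came without OP50 replicate 1, where 165 were downregulated at the unadjusted limit. Of the genes called with all 6 libraries, 464 of 1102 upregulated and 97 of 281 downregulated kept their call whichever library was left out. The cause of these shifts was not tested.

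The replicate number as a block gave 994 upregulated and 229 downregulated genes, and 3 and 0 past the adjusted limit. Deviations of same-numbered PA14 and OP50 libraries correlated at -0.19, -0.24 and -0.55 for numbers 1, 2 and 3. Pairs of unlike numbers ran from -0.32 to 0.50. With 3 libraries per group, single outlying libraries can set these values, so they cannot decide whether the numbers pair the libraries. Promoter motifs and their window were not run, since no promoter sequence was used here. Depth limits values near single reads, such as those of *acdh-1* on PA14.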
